A study of Rattus norvegicus with 48 samples.

Results

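The miR-130 and miR-301 seed family is a set of 4 mature microRNAs, miR-301a-3p, miR-130a-3p, miR-301b-3p and miR-130b-3p, that carry the same seed, the stretch near the 5′ end that pairs with target messages. They are 4 of 612 mature names, and 4 of 1063 mature and precursor names, for which a signal was deposited. The members were chosen by this shared seed after the study had listed miR-301b-3p on the same libraries for the effect of ethanol in the amygdala of non-enriched rats [A N(EvC)] and for the effect of social enrichment in the amygdala of ethanol-exposed rats [A E(SvN)]. The choice therefore used the values of these 2 contrasts, which are given here as a description with no test.

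Small RNA was sequenced from 2 regions, amygdala (A) and ventral striatum (V), of Long Evans rats aged 42 days. Dams had received ethanol (E) or saline (control, C) by injection on gestational day 12, and from weaning on day 21 the offspring were non-enriched (N), housed with littermates, or socially enriched (S), housed with unfamiliar rats of the same sex that had not been exposed. Each library was a pool of RNA from 3 rats of one sex and treatment, and 3 female (F1 to F3) and 3 male (M1 to M3) pools made up each of the groups CN, CS, EN and ES in each region, for 48 libraries in all. Both regions were taken from the same rats (per the methods), so the libraries of the 2 regions are not from separate animals, and the labels do not say which pools hold the same rats. All rats shared the strain and the age, and all dams were injected, so no group came from dams without an injection. The signal is in RPM, reads scaled so that the mature names of every library have the same sum. From the worth of 1 read in each library, mature reads numbered 363141 to 1287697 in the amygdala and 739464 to 1370407 in the ventral striatum, and 9 of 24 amygdala libraries, 2 to 3 in each treatment group, held fewer than any ventral striatum library. The summed RPM of 6 choroid plexus markers (miR-204-5p, miR-211-5p, miR-448-3p, miR-449a-5p, miR-34b-3p and miR-34c-5p) ran from 3376 to 136581 in the amygdala and from 4060 to 11385 in the ventral striatum, so 13 of 24 amygdala libraries exceeded every ventral striatum library. The summed RPM of 3 neuronal markers (miR-124-3p, miR-128-3p and miR-138-5p) was 5772 to 11866 in the amygdala and 5261 to 12838 in the ventral striatum, and none of them was at 0 throughout a region.

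A mature microRNA guides the silencing complex to messages with sites in the 3′ untranslated region that pair with its seed. Members that share a seed share most of their predicted targets, whatever locus they come from. The miR-130 and miR-301 family is known for repressing messages of growth and differentiation pathways, among them the receptor Bmpr2. A level of the whole family is thus a sum over several loci, each with its own transcription and processing.

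The mature sequences are shown because the seed defines the family and because the bases outside it decide whether a short read can be assigned to a single member. They are those of RefSeq on the rat build GRCr8, printed 5′ to 3′ with the seed, bases 2 to 8, in capitals, and 3 of the 4 members had a mature entry there.
miR-130a-3p: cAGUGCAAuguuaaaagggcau
miR-130b-3p: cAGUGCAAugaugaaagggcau
miR-301b-3p: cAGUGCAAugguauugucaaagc
For miR-301a-3p the RefSeq hairpin Mir301a is shown instead, with the same 7 bases in capitals.
Mir301a: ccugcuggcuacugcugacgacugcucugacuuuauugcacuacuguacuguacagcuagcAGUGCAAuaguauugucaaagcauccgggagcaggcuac
Along its 23 bases, miR-301b-3p differed from its best match in the Mir301a hairpin by the single change G10A, counted from 1 at the 5′ end of miR-301b-3p, and was identical at the other 22. miR-130b-3p differed from the Mir130a hairpin at 2 of 22 bases (A11U and G13A). The 2 pairs were far less alike between them, since miR-301b-3p matched the Mir130b hairpin at 13 of 23 bases. Reads of miR-301a-3p and miR-301b-3p are therefore told apart by 1 base. For other microRNA families with identical results, the paper says that its counting likely could not tell the members apart. How reads compatible with more than 1 name were counted is otherwise not given in the sources used here. In the deposited values miR-301b-3p and miR-130b-3p were whole reads in every library, within 5.48e-05 of a read. No divided reads therefore showed under these 2 names.

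On GRCr8 the loci lie apart except for the b members. Mir301a lies at chr10:72422599-72422698 on the plus strand, within the span of Ska2, a gene whose product acts at the kinetochore. Mir130a lies at chr3:90229228-90229315 on the minus strand. Mir301b and Mir130b, at chr11:97384033-97384110 and chr11:97384380-97384461, are neighbours on the plus strand, 269 bases apart. The deposited table was made on Rn5, so these positions describe the loci and not the counting.

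The a members (miR-301a-3p and miR-130a-3p) were abundant and the b members (miR-301b-3p and miR-130b-3p) were at the level of a few reads. miR-301a-3p had a mean of 934 ± 155 RPM (SD, n = 48 libraries) and ranked 85 of the 612 mature names by mean RPM, and miR-130a-3p had a mean of 747 ± 176 RPM and ranked 90. miR-301b-3p had a mean of 4.37 ± 3.11 RPM and miR-130b-3p a mean of 4.60 ± 2.38 RPM, at ranks 367 and 364. In reads, miR-301a-3p held 225 to 1481 per library and miR-130a-3p 243 to 1341, whereas miR-301b-3p and miR-130b-3p each held 0 to 12. The b members were above 3 reads in 26 of 48 and 29 of 48 libraries. A value of 3 reads is about the 95% upper limit of the expected count where 0 reads are seen. Of the RPM of the family in a library, miR-301a-3p made up a median of 54.9% (range 40.4% to 68.2%), miR-130a-3p 44.8% (31.4% to 59.2%), miR-301b-3p 0.242% and miR-130b-3p 0.277%. Limits in reads cover counting error only, since the reads come from PCR products.

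**Figure D1:**
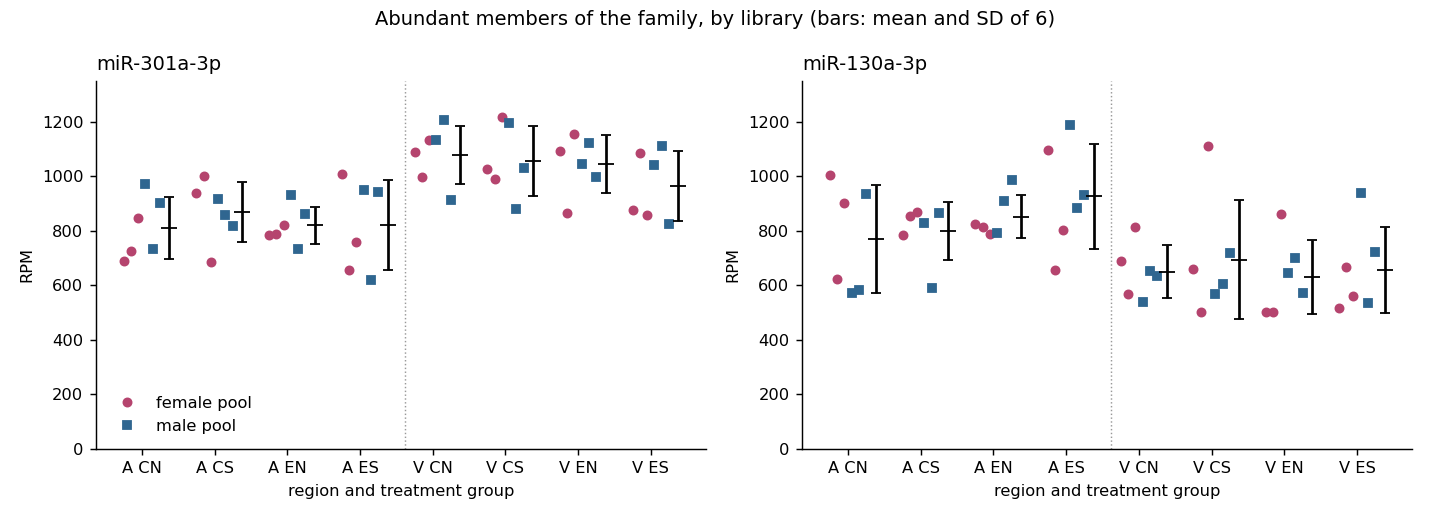
RPM of miR-301a-3p (left) and miR-130a-3p (right) in each of the 48 libraries, by region (A amygdala, V ventral striatum) and treatment group (CN, CS, EN, ES), with female pools as circles, male pools as squares, and black bars for the mean and SD of 6 libraries. Group means of miR-301a-3p were 812 to 871 RPM in the amygdala and 966 to 1080 RPM in the ventral striatum, and those of miR-130a-3p were 770 to 926 RPM and 630 to 694 RPM.

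The regions were compared over all 48 libraries, a contrast that did not enter the choice of the members. The a members differed between the regions in opposite directions. miR-301a-3p was lower in the amygdala, with a lowest, median and highest library of 620, 834 and 1007 RPM against 824, 1043 and 1217 RPM in the ventral striatum. The ranges overlapped, with 12 of 24 amygdala libraries below every ventral striatum library and 15 of 24 ventral striatum libraries above every amygdala library. Its log2 difference, amygdala minus ventral striatum on log2(RPM + 1), was −0.32 ± 0.059 (SE), 0.80-fold, with an adjusted p of 8.41e-05 in limma, and the mean was lower in the amygdala in 8 of 8 combinations of sex and treatment. miR-130a-3p was higher in the amygdala, with 572, 843 and 1188 RPM against 501, 641 and 1113 RPM. Here too the ranges overlapped, with 10 of 24 ventral striatum libraries below every amygdala library and 1 amygdala library above every ventral striatum library. The log2 difference was 0.35 ± 0.087, 1.28-fold, with an adjusted p of 0.00214 (limma), and the mean was higher in the amygdala in 8 of 8 combinations. In bulk tissue, fewer cells that make a microRNA and less of it per cell cannot be told apart.

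Differences between the regions were frequent among all names. Of 942 names tested, 278 (29.5%) passed an adjusted p of 0.05 in either direction, 80 higher and 198 lower in the amygdala, and the median difference of all names was −0.082. Against this, 2 of the 4 members passed, both of them a members. Choroid plexus markers moved with the region, as given above, and the summed RPM of 3 oligodendrocyte markers (miR-219a-5p, miR-219a-2-3p and miR-338-3p) had medians of 7089 RPM in the amygdala (4671 to 15452) and 10324 RPM in the ventral striatum (6218 to 15920). The neuronal marker sum had medians of 9302 RPM in the amygdala and 7649 RPM in the ventral striatum, with ranges that overlapped. Its markers differed in direction. By median, miR-128-3p (6001 against 4338 RPM) and miR-124-3p (2402 against 2190 RPM) were higher in the amygdala, and miR-138-5p (859 against 1076 RPM) was lower. The part of these cells in the differences was not tested. Without the 13 amygdala libraries whose choroid plexus sum exceeded every ventral striatum library, miR-301a-3p still passed (−0.29 ± 0.084, adjusted p = 0.0218) and miR-130a-3p did not (0.20 ± 0.12, adjusted p = 0.279, limma), an alternative set after the values were seen. With these fewer libraries 163 of 942 names passed, against 278, so the lost call is no test of a choroid plexus part. Without the 9 shallow amygdala libraries both passed, at −0.25 ± 0.054 and 0.37 ± 0.10. An amygdala and a ventral striatum library with consecutive numbers may hold the same rats, although the labels do not say so. With these numbers as a random term (correlation 0.054), both a members passed, at an adjusted p of 6.42e-05 and 0.00147 (limma). The direction of both a members held in females alone and in males alone, where miR-130a-3p missed the threshold in females (0.36 ± 0.13, adjusted p = 0.0884).

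The a members were also set against each other within a library. The RPM of miR-301a-3p was above that of miR-130a-3p in 24 of 24 ventral striatum libraries, at a median ratio of 1.61 (range 1.09 to 2.17), and in 10 of 24 amygdala libraries, at a median of 0.965 (0.683 to 1.70). The summed family level was 1676 ± 214 RPM in the amygdala and 1705 ± 227 RPM in the ventral striatum (SD, n = 24 each). A ratio within a library does not depend on its scaling, but its ranges overlapped, and a ratio of RPM depends on how well each sequence is ligated and amplified, so its absolute value has no meaning apart from the comparison.

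**Figure D2:**
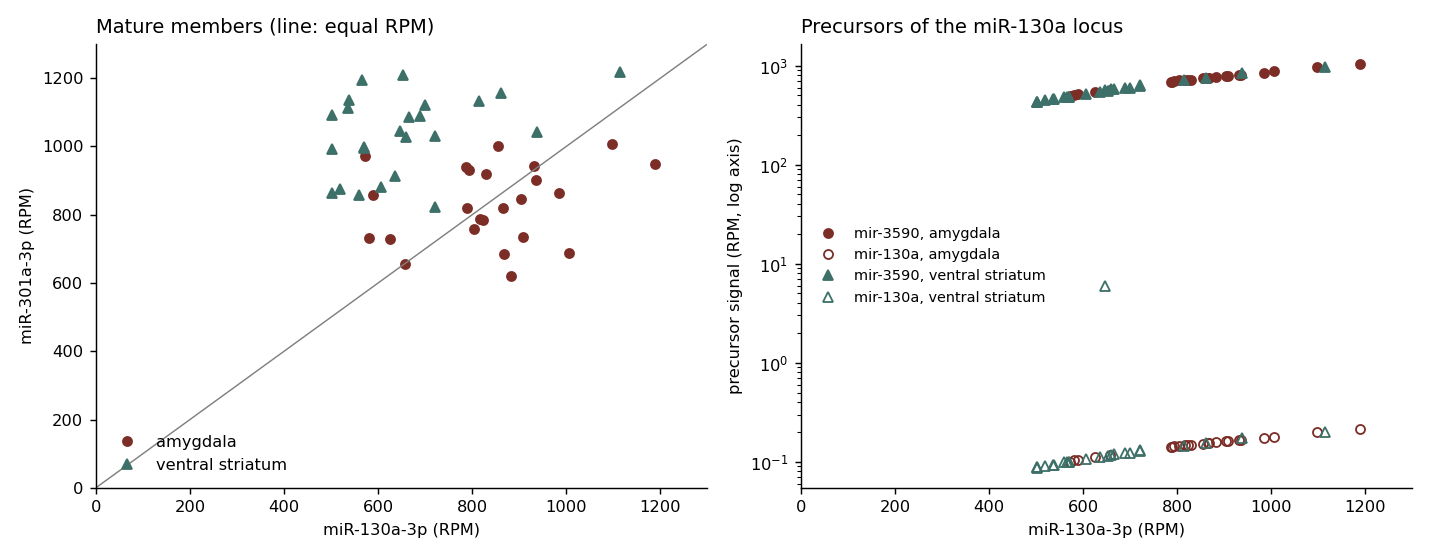
Left, miR-301a-3p against miR-130a-3p in each library (RPM, amygdala as circles, ventral striatum as triangles, the line marking equal RPM): all 24 ventral striatum libraries lie above the line and 14 of 24 amygdala libraries on or below it. Right, the precursor names mir-3590 (filled) and mir-130a (open) against miR-130a-3p, with the precursor signal on a log axis. mir-3590 follows miR-130a-3p at 0.845 to 0.898 of its RPM. mir-130a also follows miR-130a-3p, near 0.1 to 0.2 RPM, except in 1 ventral striatum library at 6.01 RPM.

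For the b members no difference between the regions was detectable at this depth by the adjusted test. miR-301b-3p had 0 to 10.1 RPM (median 3.59) in the amygdala and 1.13 to 11.7 RPM (median 4.57) in the ventral striatum, 78 and 128 reads in all, with a log2 difference of −0.53 ± 0.26 (95% interval −1.05 to 0.0009, adjusted p = 0.125, limma). miR-130b-3p had 0 to 7.72 RPM (median 3.71) and 0.783 to 10.7 RPM (median 5.45), by coincidence also 78 and 128 reads, with a difference of −0.30 ± 0.17 (−0.65 to 0.050, adjusted p = 0.197). In females alone miR-301b-3p passed (−1.01 ± 0.27, adjusted p = 0.0184) and in males alone it did not (−0.037 ± 0.44). The difference between the sexes in this contrast did not pass its own test in limma across all names (−0.98 ± 0.52, adjusted p = 1). Female amygdala pools had a mean of 2.28 ± 1.95 RPM of miR-301b-3p and male amygdala pools 5.30 ± 3.53 RPM (SD, n = 12 each), against 5.09 ± 2.61 and 4.82 ± 3.43 RPM in the ventral striatum.

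Ordered by group mean, all 4 ventral striatum groups lay above all 4 amygdala groups for miR-301a-3p, and all 4 amygdala groups above all 4 ventral striatum groups for miR-130a-3p. miR-301a-3p ran in the order V CN (1080 ± 107 RPM, SD, n = 6), V CS (1057 ± 127), V EN (1045 ± 105), V ES (966 ± 128), A CS (871 ± 110), A ES (822 ± 166), A EN (820 ± 69) and A CN (812 ± 113). miR-130a-3p ran in the order A ES (926 ± 194), A EN (853 ± 78), A CS (799 ± 107), A CN (770 ± 198), V CS (694 ± 219), V ES (657 ± 159), V CN (650 ± 98) and V EN (630 ± 137). For both members every pair of neighbours in the order differed by less than their pooled SD and had overlapping ranges, including the pair where the regions meet.

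No difference between females and males was detected for any member. Of 942 names, 0 (0%) passed the adjusted test, and 37 had an unadjusted p under 0.05 (limma). The difference, female minus male, was −0.047 ± 0.059 for miR-301a-3p, 0.0037 ± 0.087 for miR-130a-3p, −0.33 ± 0.26 for miR-301b-3p and −0.24 ± 0.17 for miR-130b-3p, each with an adjusted p of 1. The 95% interval of miR-301a-3p, −0.17 to 0.074, excluded changes of the size seen between the regions, whereas that of miR-301b-3p, −0.86 to 0.19, did not.

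In the ventral striatum, the 4 treatment contrasts asked whether prenatal ethanol or social enrichment altered the members in the region for which miR-301b-3p had not been listed. None of the members passed in any of them, against a background of 0 of 933 names (0%) passing in each. At an unadjusted p under 0.05 there were 19 names in V N(EvC), 17 in V E(SvN), 21 in V S(EvC) and 36 in V C(SvN) by limma, none of them a member. These contrasts share groups with each other, since each group enters a pair of them.

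For the a members the ventral striatum groups lay close together. miR-301a-3p had a lowest, median and highest library of 913, 1111 and 1209 RPM in CN, 882, 1028 and 1217 in CS, 864, 1068 and 1156 in EN, and 824, 958 and 1113 in ES, and every pair of groups overlapped. Its log2 differences were −0.047 ± 0.10 in V N(EvC), −0.12 ± 0.10 in V E(SvN), −0.13 ± 0.10 in V S(EvC) and −0.033 ± 0.10 in V C(SvN), and the 95% intervals, which together ran from −0.35 to 0.19, bound the change at this depth. miR-130a-3p had 537, 644 and 815 RPM in CN, 501, 632 and 1113 in CS, 502, 609 and 860 in EN, and 518, 613 and 937 in ES. The highest library of CS, replicate F3, stood apart from the other 5. The differences of miR-130a-3p were between −0.061 and 0.058 with a standard error of 0.19 in all 4 contrasts.

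The b members had wider intervals in the ventral striatum. miR-301b-3p summed to 21 reads in the 6 libraries of CN, 40 in CS, 25 in EN and 42 in ES, so both enriched groups held more reads than both non-enriched groups, over library totals of 6378268, 6686774, 6290836 and 5927622 mature reads. Its differences were 0.62 ± 0.40 in V E(SvN) and 0.62 ± 0.40 in V C(SvN), with 95% intervals of −0.22 to 1.47 and −0.23 to 1.46, and 0.13 ± 0.40 and 0.14 ± 0.40 for ethanol in V N(EvC) and V S(EvC), all with an adjusted p of 1 (limma). In V E(SvN), 3 of 6 ES libraries lay above every EN library and the rest overlapped. miR-130b-3p summed to 23 reads in CN, 36 in CS, 37 in EN and 32 in ES, with differences of 0.65 ± 0.38 in V N(EvC) and 0.62 ± 0.38 in V C(SvN), and −0.15 ± 0.38 and −0.12 ± 0.38 in V E(SvN) and V S(EvC), again with an adjusted p of 1.

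**Figure D3:**
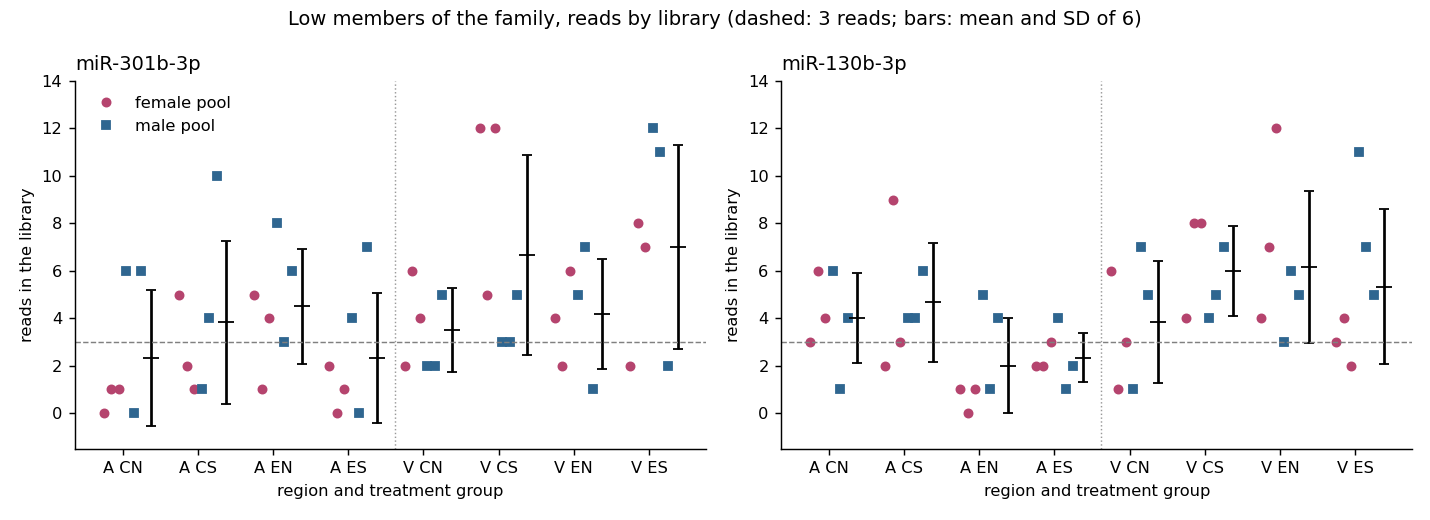
Reads of miR-301b-3p (left) and miR-130b-3p (right) in each library, by region and treatment group, with female pools as circles, male pools as squares, black bars for the mean and SD of 6 libraries, and a dashed line at 3 reads. No library exceeded 12 reads, and the 6 libraries of A CN held 0 to 6 reads of miR-301b-3p against 1 to 8 in A EN.

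In the amygdala, 2 contrasts did not enter the choice of the members by name, the effect of ethanol in enriched rats [A S(EvC)] and of enrichment in control rats [A C(SvN)], although each shares a group with the contrasts that did. Of 910 names, 0 (0%) passed in either, with 35 and 24 at an unadjusted p under 0.05 (limma), none of them a member. In A S(EvC), miR-130a-3p had a lowest, median and highest library of 656, 907 and 1188 RPM in ES against 589, 843 and 868 in CS, and 4 of 6 ES libraries lay above every CS library, with a log2 difference of 0.20 ± 0.16 (95% interval −0.13 to 0.53). The other differences in this contrast were negative, at −0.10 ± 0.13 for miR-301a-3p, −0.78 ± 0.60 for miR-301b-3p and −0.52 ± 0.29 for miR-130b-3p. In A C(SvN) all 4 were positive, at 0.10 ± 0.13 for miR-301a-3p, 0.081 ± 0.16 for miR-130a-3p, 0.97 ± 0.60 for miR-301b-3p and 0.18 ± 0.29 for miR-130b-3p. Every adjusted p was 1, and the intervals of miR-301b-3p, −2.04 to 0.49 and −0.30 to 2.24, left room for large changes in either contrast. The contrasts S(EvC) and C(SvN) were also compared between the regions, and no member passed the test of that difference (adjusted p = 1 for all, limma).

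In the 2 contrasts by which miR-301b-3p was listed, its libraries read as follows. In reads, replicates F1 to F3 and M1 to M3 held 0, 1, 1, 6, 0 and 6 in A CN, 5, 1, 4, 8, 3 and 6 in A EN, and 2, 0, 1, 4, 0 and 7 in A ES. The group sums were 14, 27 and 14 reads over 5073159, 4665061 and 4220414 mature reads, and A CS stood between with 23 reads over 5241079. In RPM, the lowest, median and highest library was 0, 1.13 and 5.52 in A CN, 1.61, 5.70 and 10.1 in A EN, and 0, 2.01 and 7.85 in A ES. EN was thus the higher group in both contrasts, but the groups overlapped, with 3 of 6 EN libraries above every CN library and 3 of 6 ES libraries below every EN library. The log2 difference was 1.42 ± 0.60 in A N(EvC) and −1.23 ± 0.60 in A E(SvN), without a test. With each library left out in turn, it ran from 0.99 to 1.67 in A N(EvC) and from −1.56 to −0.77 in A E(SvN), where −0.77 was the value without the A ES library M2, one of those at 0 reads.

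In a single library, a count of 0 did not exclude a level such as the median of A EN. The A CN libraries without a miR-301b-3p read, F1 and M2, were shallow, and 3 reads, the limit given above for a count of 0, were worth 6.29 and 6.83 RPM there. In the A ES libraries without a read, F2 and M2, 3 reads were worth 8.09 and 8.26 RPM. These limits exceed the median of A EN. The A EN library at 8.06 RPM, M2, held 3 reads. Choroid plexus sums were also highest by median in A EN and lowest in A CN, with ranges that overlapped. The medians were 9181 RPM in A CN (3376 to 37655), 33667 RPM in A EN (3777 to 136581), 18015 RPM in A ES (4539 to 42932) and 16379 RPM in A CS (3705 to 40337). A ES stood above A CS in these sums but below it in miR-301b-3p. The part of depth and of choroid plexus RNA in the values of miR-301b-3p was not tested.

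The other members are given for the same 2 contrasts, again with no test. miR-130b-3p, from the hairpin next to that of miR-301b-3p, lay the other way, with 24 reads in A CN, 12 in A EN and 14 in A ES. Its lowest, median and highest library was 2.28, 4.83 and 6.29 RPM in A CN, 0, 1.95 and 6.29 in A EN, and 2.24, 3.04 and 5.39 in A ES, and 3 of 6 EN libraries lay below every CN library. The difference was −0.93 ± 0.29 in A N(EvC) and 0.59 ± 0.29 in A E(SvN). For miR-301a-3p the groups were 688, 790 and 973 RPM in A CN, 733, 804 and 930 in A EN, and 620, 851 and 1007 in A ES, with differences of 0.022 ± 0.13 and −0.018 ± 0.13. For miR-130a-3p they were 572, 764 and 1007 RPM, 789, 820 and 985 RPM, and 656, 907 and 1188 RPM, with differences of 0.18 ± 0.16 and 0.097 ± 0.16. Summed RPM of the family is set by the a members, so the shift in miR-301b-3p, from a mean of 2.08 ± 2.41 RPM to 5.91 ± 2.94 RPM (SD, n = 6), is small beside the SD of miR-301a-3p in A CN, 113 RPM.

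**Figure D4:**
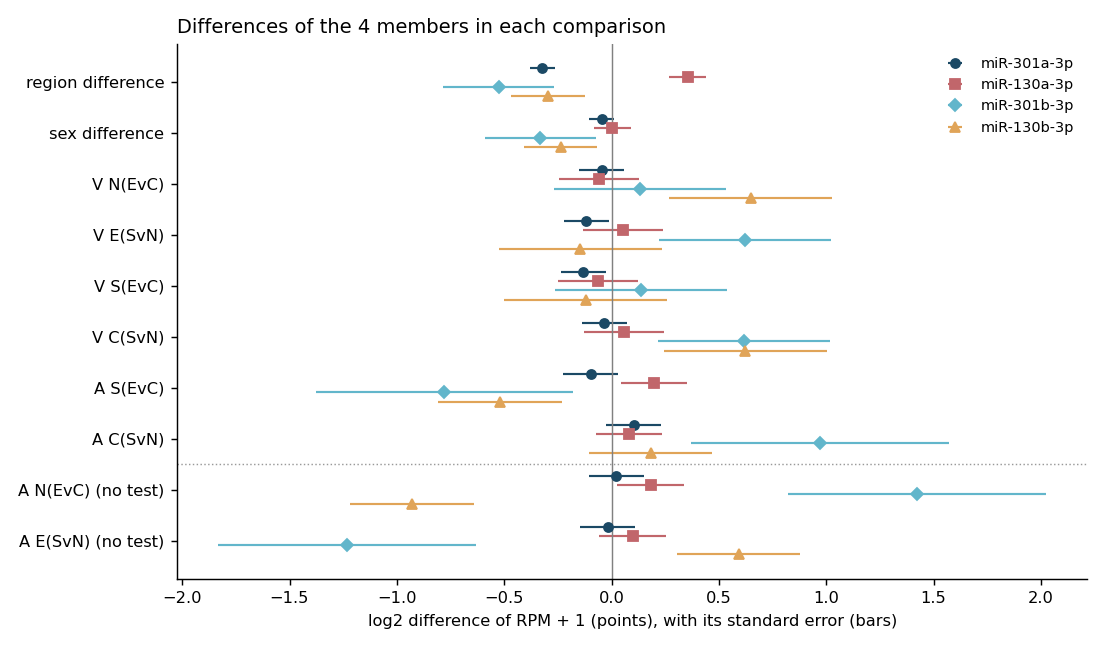
Log2 differences of RPM + 1 (points) with standard errors (bars) of the 4 members in the 10 comparisons, with the 2 contrasts that chose miR-301b-3p below the dotted line. In the treatment contrasts the points of the a members lie between −0.13 and 0.20, the highest being miR-130a-3p in A S(EvC). In the region difference the a members lie on opposite sides of 0. The bars of miR-301b-3p and miR-130b-3p are wider in every comparison.

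The RPM of miR-301b-3p was also set against that of miR-301a-3p in the same library, because their reads differ by a single base. The ratio had a median of 0.438% over the 48 libraries and a range of 0% to 1.18%, with medians of 0.144% in A CN, 0.439% in A CS, 0.695% in A EN and 0.216% in A ES, and of 0.272%, 0.474%, 0.366% and 0.719% in V CN, V CS, V EN and V ES. The ratio of miR-130b-3p to miR-130a-3p had a median of 0.611% and a range of 0% to 1.54%. After the means of the 16 combinations of region, sex and treatment were taken out, miR-301b-3p and miR-301a-3p had r = 0.49 over the 48 libraries, miR-301a-3p and miR-130a-3p r = 0.35, and miR-301b-3p and miR-130b-3p, the neighbours, r = 0.085. Values of one library share its depth and scaling, so these are descriptions. How many miR-301b-3p reads were misread miR-301a-3p reads was not tested.

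The 5p arms and the precursor names of the 4 loci were also read. miR-301a-5p was above 0 in 6 of 48 libraries and miR-130a-5p in 11 of 48, never by more than 2 reads, so nearly all mature reads of these loci were of the 3p arm. miR-130b-5p had 96 reads in all against 206 of miR-130b-3p, and its name passed the filter, with no call in any contrast tested. miR-301b-5p was not analysed here. The precursor names mir-301a and mir-301b followed miR-301a-3p and miR-301b-3p closely, with within-group correlations over the libraries of r = 0.998 each, which share reads and so are no second measurement. mir-130b, which also holds the reads of the 5p arm, had r = 0.75 with miR-130b-3p, and its differences of 0.75 ± 0.35 in V N(EvC) and 0.82 ± 0.35 in V C(SvN) did not pass (adjusted p = 1, limma). mir-301a differed between the regions as its mature form did, at −0.31 ± 0.058 (adjusted p = 0.000118, limma).

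The precursor name mir-130a held almost none of the signal of its mature form. It stood at 0.256 RPM on average, under 1 read in 47 of 48 libraries, although miR-130a-3p held at least 243 reads in each. At this low level it still followed miR-130a-3p, at 0.0176% to 0.0183% of its RPM in the 24 amygdala libraries. In the ventral striatum this ratio had a median of 0.0176% and a lowest value of 0.0174%. Its highest value, 0.929%, was in a single V EN library. Nearly all of the signal stood instead under mir-3590, with a mean of 647 ± 158 RPM and a ratio to miR-130a-3p of 0.845 to 0.898 in every library. The hairpin Mir3590 lies on the plus strand opposite Mir130a, with all of its 74 bases inside the span of Mir130a. Its mature product is shown because it can be set base by base beside miR-130a-3p.
miR-3590-5p: ugcccuuuuaacauugcacug
The reverse complement of these 21 bases was identical to bases 1 to 21 of miR-130a-3p, so that without strand the reads of the 2 names cannot be told apart. miR-3590-5p had a median of 1.74 RPM and a highest value of 30.8 RPM, and the reads of the pair were divided between the 2 names in the deposited values. Each name alone was a whole number of reads, within 0.05 of a read, in 3 of 48 libraries, and their sum was in 48 of 48. mir-3590 differed between the regions by 0.37 ± 0.089 (adjusted p = 0.0019, limma), as miR-130a-3p did, and 19 of 24 pairs of libraries with consecutive numbers had more of each in the amygdala. mir-3590 and miR-130a-3p share reads (within-group r = 0.999), so this is no second measurement. With miR-3590-5p added to miR-130a-3p, the latter kept its direction and its call between the regions. Whether the strand was used in counting is not given in the sources used here. For this pair the deposited values divided reads between names on opposite strands, so strand did not separate them.

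Some microRNAs carry a seed that overlaps that of the family by 6 bases but is shifted by 1 position, and these are shown because their targets can overlap with those of the family. The shared bases are in capitals.
miR-148a-3p: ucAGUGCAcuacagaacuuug
miR-148b-3p: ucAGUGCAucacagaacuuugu
miR-152-3p: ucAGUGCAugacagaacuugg
miR-19a-3p: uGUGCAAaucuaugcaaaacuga
miR-19b-3p: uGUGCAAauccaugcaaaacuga
Of the 5, 4 passed between the regions, 3 of them lower in the amygdala like miR-301a-3p and 1 higher like miR-130a-3p, against the 29.5% of all names. miR-148a-3p was lower in the amygdala at 167 ± 25 against 211 ± 40 RPM (−0.32 ± 0.069, adjusted p = 0.00046), miR-148b-3p at 968 ± 110 against 1048 ± 102 RPM (−0.12 ± 0.044, adjusted p = 0.0478), and miR-19b-3p at 52.9 ± 11 against 64.4 ± 9.2 RPM (−0.29 ± 0.072, adjusted p = 0.00228, limma; SD, n = 24 each). miR-152-3p was higher at 4.48 ± 2.55 against 2.72 ± 2.14 RPM (0.59 ± 0.21, adjusted p = 0.0361), which is a few reads. miR-19a-3p missed the threshold (−0.38 ± 0.17, adjusted p = 0.0928). None of the 5 passed in the 6 treatment contrasts tested or between the sexes. In A N(EvC), with no test, miR-152-3p had 2.43 ± 1.13 RPM in CN and 6.22 ± 2.49 RPM in EN (SD, n = 6 each), and the other 4 differed by −0.19 to 0.10 on the log2 scale. In A E(SvN), also with no test, miR-19a-3p had 6.73 ± 2.52 RPM in EN and 3.42 ± 2.16 RPM in ES, a log2 difference of −0.97 ± 0.35. There miR-152-3p differed by −0.26 ± 0.38, and the other 3 by 0.043 to 0.071.

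The names whose libraries deviated from their group means most like those of each member were taken from 305 mature names with a mean of at least 10 RPM, by the Pearson correlation over the 48 libraries. For miR-301a-3p they were miR-136-5p (r = 0.83), miR-136-3p (r = 0.80) and miR-598-3p (r = 0.79). For miR-130a-3p they were miR-125b-2-3p (r = 0.76), miR-28-3p (r = 0.74) and miR-298-5p (r = 0.69). None of these 6 names was shared between the members, although their seed is. For the b members the best correlations were lower, at 0.55 (miR-384-3p), 0.49 (miR-434-5p) and 0.49 (miR-374-3p) for miR-301b-3p and 0.45 (let-7i-5p), 0.43 (miR-9a-3p) and 0.43 (miR-434-3p) for miR-130b-3p. All values of a library share its depth and its scaling to a fixed sum.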

How the data were processed

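Small RNA libraries of 48 pools were made and sequenced by the authors, who trimmed low-quality bases, aligned the reads to Rn5 with Bowtie, quantified them in Partek Flow against miRBase and deposited a normalized signal in RPM per name and library (per the labels and the methods). Mature and precursor names each have a fixed sum in a library, so levels of mature and precursor names are on separate scales. No value was rescaled here. Where a name had several lines (56 names, 122 lines, no member), their values were summed with Python 3.11.15 and pandas 2.3.3. The lowest value that at least 5 mature names of a library shared was taken as the worth of 1 read, and 91.1% to 99.5% of the low mature values were then whole reads within 0.05 of a read. Since other values were fractions, no test for whole counts was used. Members and lists were chosen with earlier results of these data known.

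A name entered a fit when 6 or more of the 24 libraries in a region had a value over 0, which lets in names with traces of a read. Values were taken as log2(RPM + 1), and limma 3.58.1 in R 4.3.3 gave moderated two-sided p-values (eBayes with a mean-variance trend), with Benjamini-Hochberg adjustment over all names tested. Groups were the 8 combinations of sex and treatment within a region, or 16 over both regions, and each contrast was the mean over these. A fold change on this scale understates the change of low names. Replicates are numbered pools, and where pools shared litters is not given in the sources used here. On simulated data, V N(EvC) recovered 86% of 100 names changed by 1 on the log2 scale and 48% of 100 changed by 0.5, among 929 names. The changed names were drawn only from those with a mean of at least 10 RPM. These shares therefore do not apply to the b members, which lie below that mean. The shares also hold for 200 names changed at once, which eases the adjusted threshold, and not for 1 member changed alone. Named were the members, their precursors and 5p arms, the 5 relatives with an offset seed, and for each member the 3 mature names most like it. miR-3590 names were added after the values were seen. Same-numbered replicates were not paired: of 36 pairs within sex, deviations from the group means correlated above 0.1 in 14 pairs in the amygdala and in 14 in the ventral striatum. Alternatives were mature names alone, median-ratio rescaling, values without a log, other pseudocounts (0.1 and 10), other filters (none, or a mean of 10 RPM or more), a replicate block, consecutive library numbers, which may mark the same rats in both regions, as a random term, subsets of the libraries and each library left out.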

Additional observations from a re-analysis of the deposited data

Results flagged for a closer look

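Among 32 groups of 6 libraries (the 4 members in 8 combinations of region and treatment), 2 held a library farther from the rest than Dixon's 95% limit for 6 values, and chance gives about 1 in 20 such groups. miR-130a-3p was low in 1 A CS library, male replicate M2, at 589 RPM, with a gap of 0.709 of the range, and this library also belongs to the shallow amygdala libraries. miR-130a-3p was high in 1 V CS library, female replicate F3, at 1113 RPM, with a gap of 0.642. Without that library the difference of miR-130a-3p was 0.10 in V S(EvC) and −0.10 in V C(SvN), the reverse of the sign with it, and neither passed. No member passed a test of a difference between regions or between sexes within a contrast.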

How the results depend on the processing

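Between the regions, miR-301a-3p kept its direction and passed, and miR-130a-3p kept its direction, under every alternative run, with these exceptions in the call. In saline enriched rats alone, 12 libraries, the differences were −0.28 and 0.24, neither passed, and 0 of 942 names did. In females alone miR-130a-3p (0.36) did not pass and miR-301b-3p (−1.01) did. Without the choroid-rich amygdala libraries miR-130a-3p (0.20) did not pass. Names called numbered 138 of 519 mature names alone, 113 in females, 146 in males and 163 without the choroid-rich libraries, against 278, where fewer names or libraries entered. With each library left out, both a members passed 48 of 48 times.

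In the sex difference, the ventral striatum alone turned miR-130a-3p (−0.0053) and miR-301b-3p (0.16), neither called, and with each library left out miR-130a-3p ran from −0.036 to 0.036. With each library left out, no member was called in a treatment contrast, but differences near 0 changed sign. The ranges were −0.11 to 0.016 for miR-301a-3p, −0.19 to 0.0068 for miR-130a-3p and −0.040 to 0.42 for miR-301b-3p in V N(EvC), −0.044 to 0.18 for miR-130a-3p in V E(SvN), −0.19 to 0.097 for miR-130a-3p and −0.035 to 0.45 for miR-301b-3p in V S(EvC), −0.093 to 0.022 for miR-301a-3p and −0.10 to 0.19 for miR-130a-3p in V C(SvN), −0.18 to 0.0039 for miR-301a-3p in A S(EvC), and −0.021 to 0.20 for miR-130a-3p in A C(SvN). Names called ran from 0 to 1 in the sex difference, V N(EvC), V E(SvN) and V S(EvC). The 1 name was miR-191b without V ES male replicate M3, except in V N(EvC), where it was mir-122 without V EN male replicate M2, and a fit to the 12 libraries of V N(EvC) called 1 name, mir-3084c. These names were singled out after their values were seen, and all are at a few reads or less.

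In the contrasts without a test, the scale moved the b members. With a pseudocount of 0.1 miR-301b-3p was at 2.61 in A N(EvC) and −2.35 in A E(SvN), and miR-130b-3p at −1.62 and 1.21. With a pseudocount of 10 miR-301b-3p was at 0.40 and −0.34, and miR-130b-3p at −0.25 and 0.12. Median-ratio rescaling shifted the median of all names by 0.10 in A N(EvC) and by at most 0.069 in size elsewhere. The b members have no value under a mean of at least 10 RPM. With the replicate number as a block, names called between the regions were 293, and no call of a member changed. Depth limits the b members: the worth of 1 read ran from 0.730 to 2.75 RPM.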

Other observations

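The precursor name mir-130a reached 6.01 RPM in 1 library, V EN male replicate M1, which is 6.42 reads and so not a whole number of reads. In the other 47 libraries it held fractions of a read. Reads of the opposite arm, miR-3590-3p, were found in 3 of 48 libraries, 1 read in each.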
